A study of Rattus norvegicus with 3 samples.

Results

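The receptors for glutamate and GABA were described in rat sciatic nerve through the 47 genes whose symbols name a subunit: the AMPA (Gria1 to Gria4), kainate (Grik1 to Grik5), delta (Grid) and NMDA (Grin) subunits, the metabotropic glutamate receptors (Grm), the GABAA and rho subunits (Gabr) and the GABAB subunits (Gabbr1 and Gabbr2). They were picked by symbol alone, with no measured value, from the 22608 rows of the mRNA gene table, and 26 of them code for glutamate receptors and 21 for GABA receptors. Male SD rats (Sprague-Dawley) gave 1 library of total nerve RNA for each of 3 groups at day 30. The AKBA library came from crushed nerve of rats given AKBA (acetyl-11-keto-beta-boswellic acid, from Boswellia resin), the model library from crushed nerve without it, and the sham library from nerve that was exposed but not crushed. The model library carries only the word control as its treatment label, and its place as the crushed, untreated nerve follows from the series' design text. The sources used here do not give the AKBA dose, its schedule or the number of rats behind a library.

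Glutamate opens AMPA, kainate and NMDA receptors, which are cation channels made of several subunits, and acts on metabotropic receptors, which signal through G proteins. GABA opens GABAA receptors, which are chloride channels made of several subunits, and acts on GABAB receptors, which couple to G proteins and need both Gabbr1 and Gabbr2 at the cell surface. Several subunits work only with a partner: NMDA receptors need Grin1, and Grik4 and Grik5 form channels with Grik1, Grik2 or Grik3. In peripheral nerve, receptors of both transmitters have been described on axons and on Schwann cells, whose GABAB and GABAA receptors have been linked to proliferation and myelin genes.

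The libraries held 90071899 (AKBA), 89505656 (model) and 74184217 (sham) counts, and levels are given as CPM, a gene's counts scaled to a common library total. Ribosomal RNA rows took 7.59% of the AKBA counts, 4.20% of the model counts and 11.5% of the sham counts. Every difference below is one between single libraries with no replicate check, so no p-value was computed. Intervals are exact at 95% and cover counting error only. A gene was called higher or lower when the ratio of (CPM + 1) reached 2-fold, among genes that averaged 1 CPM or more over the libraries. The median log2 ratio of all 14427 of them was -0.04 for AKBA over model, 0.16 for AKBA over sham and 0.18 for model over sham. Gene lengths were not at hand, so levels of different genes are not compared. The sample held the markers of nerve: the 5 myelinating Schwann cell genes summed to 34114 CPM in AKBA, 38991 in model and 16119 in sham, and 4 of them were called higher in each crushed nerve than in sham, whereas Mbp was called lower in AKBA than in sham. Other tissues differed between the libraries too, with 20 of 20 skeletal muscle genes called higher in AKBA than in model (summed level 7655 CPM in AKBA, 1001 in model and 491 in sham) and both hair follicle genes called higher in AKBA than in either other library (summed level 86.0 CPM in AKBA, 2.42 in model and 4.29 in sham).

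Of the 47 receptor genes, 37 had at least 1 count in AKBA, 39 in model and 36 in sham. The level filter of 1 CPM on average was passed by 14: Gria2, Gria3 and Gria4, Grik2, Grik3 and Grik5, Grin2b, Grin2d and Grin3b, Grm6, Gabra3 and Gabrp, Gabrr2, and Gabbr1. Of the 33 below it, 21 had at least 20 counts over the 3 libraries, 6 had between 1 and 19, and 6 had none, among them Grin2c, Grm2, Gabra6, Gabrd and Gabrg3. In AKBA against model, Grin2b was called higher and Gria2 lower, 1 gene of 14 each way, where 2.69% and 1.37% of all genes were called. In AKBA against sham, Grik2 was called higher and Gria2 lower (5.83% and 2.08% of all genes). In model against sham, Gabbr1, Gabra3 and Grik3 were called higher and Grin2b lower (4.52% and 1.31% of all genes). The comparisons share libraries pairwise, so their calls are not independent of one another. The median log2 ratio of the 14 genes was -0.30 for AKBA over model, 0.29 for AKBA over sham and 0.36 for model over sham. Relative to the median of all genes this was -0.25 for AKBA over model, 0.13 for AKBA over sham and 0.18 for model over sham.

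**Figure D1:**
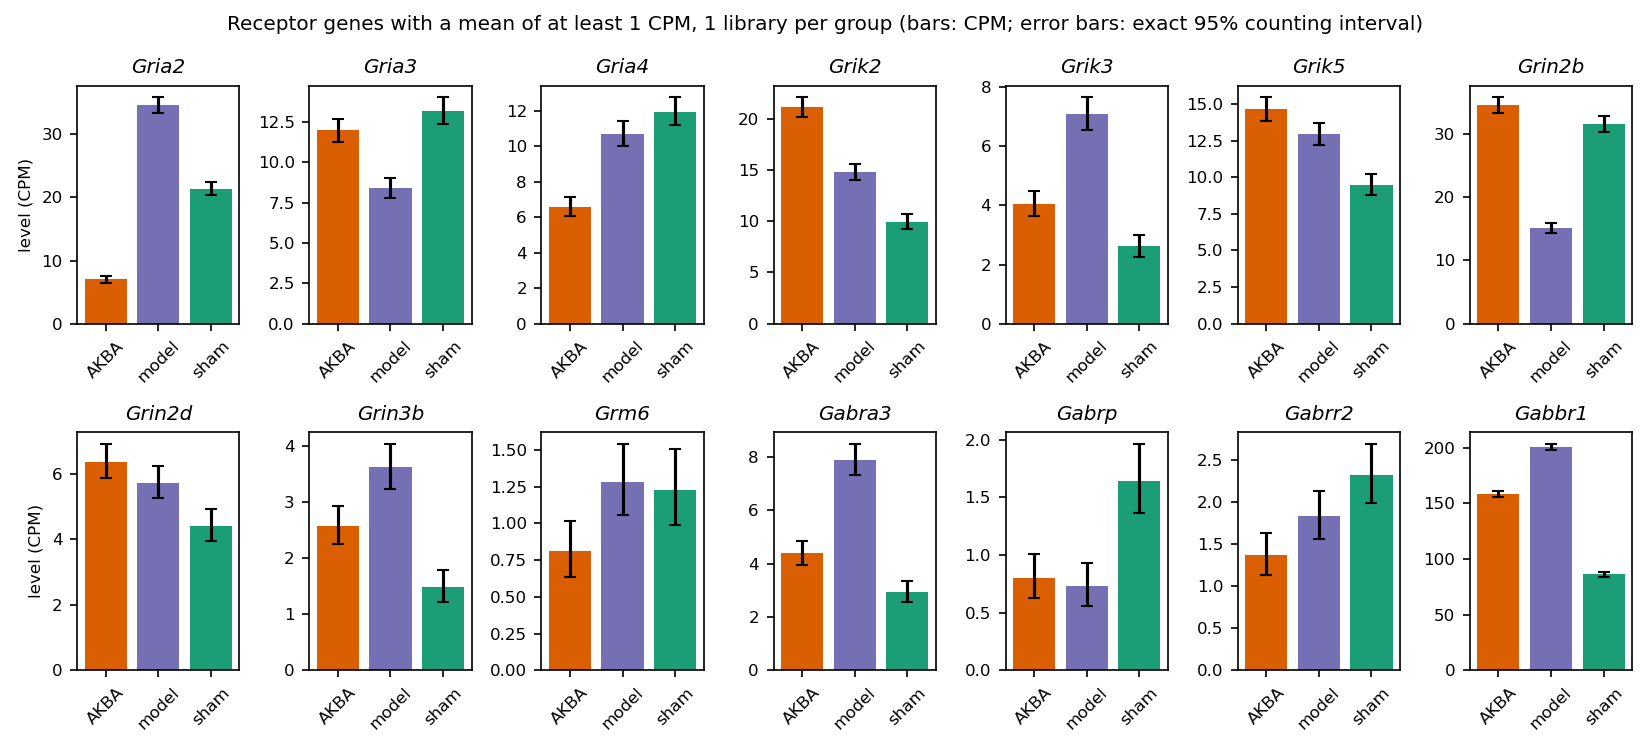
Levels of the 14 receptor genes that averaged 1 CPM or more, 1 panel per gene, with the AKBA, model and sham libraries from left to right, the level in CPM on the y axis and exact 95% counting intervals as error bars. Gria2 is lowest in AKBA, Grin2b is lowest in model, and Gabbr1, Gabra3, Grik3 and Grin3b are highest in model.

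Markers of the cells that could carry these receptors moved with some of the results, and their part in them was not tested. The 11 neuron and axon genes summed to 72.4 CPM in AKBA, 98.5 in model and 48.0 in sham, with 2 of 9 past the filter called higher in model than in sham (Uchl1 and Tubb3) 2 lower in AKBA than in model (Uchl1 and Nefh) and 1 higher in AKBA than in sham (Nefm). Their orders differed, since Nefm (14.1 CPM in AKBA, 7.32 in model and 6.15 in sham) and Nefl (17.0 in AKBA, 10.9 in model and 8.55 in sham) were highest in AKBA, whereas Uchl1 (18.0 in AKBA, 41.7 in model and 13.3 in sham) and Nefh (0.2998 in AKBA, 2.18 in model and 1.15 in sham) were highest in model. Rbfox3, which marks neuronal cell bodies, had 2 counts in AKBA, 0 in model and 2 in sham. The 6 genes of satellite glia and non-myelinating Schwann cells summed to 207 CPM in AKBA, 176 in model and 90.2 in sham, with Fabp7 at 0 in model and sham. Of its 5 genes past the filter, Kcnj10 and Ngfr were called higher in AKBA than in model, and Kcnj10, Gfap and Ngfr higher in AKBA than in sham (Ngfr 74.6 CPM in AKBA, 17.3 in model and 24.7 in sham). Ncam1 (41.3 CPM in AKBA, 64.9 in model and 23.0 in sham) and L1cam (41.9 in AKBA, 64.5 in model and 26.1 in sham) were called higher in model than in sham and were highest in model, as were Gabbr1, Gabra3 and Grik3. The 5 central glia genes summed to 421 CPM in AKBA, 497 in model and 455 in sham. Of them Sox10, which Schwann cells also express, was called higher in both crushed nerves than in sham (107 CPM in AKBA, 77.3 in model and 32.4 in sham), Pdgfra, also found in fibroblasts, was under 2-fold in every comparison, and the others were below the filter: Olig2 had 33 counts in AKBA, 13 in model and 30 in sham, Slc1a2 had 17 in AKBA, 40 in model and 10 in sham, and Aqp4 had 48 in AKBA and 0 in model and sham. The 4 mast cell genes summed to 57.3 CPM in AKBA, 199 in model and 131 in sham, lowest in AKBA and highest in model, as for Gria2, with 3 of them called lower in AKBA than in model. The 3 fat cell genes summed to 798 CPM in AKBA, 1598 in model and 3326 in sham, and the 4 macrophage genes to 505 CPM in AKBA, 568 in model and 542 in sham. Of the macrophage genes, Cd68 (60.1 CPM in AKBA, 20.9 in model and 43.7 in sham) was called higher in AKBA than in model and lower in model than in sham, as Grin2b was, and the others were under 2-fold. Fewer cells of a type and less RNA per cell cannot be told apart in such samples. With library totals taken without the skeletal muscle genes, the calls of the receptor genes were unchanged in all 3 comparisons. That setting changes only the scaling, and moved the median of all genes by 0.01 in AKBA over model. It cannot show whether receptor RNA came from muscle, which was not tested.

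Start sites were compared to see what the sequences share. RefSeq promoter windows of build GRCr8 (250 bases before to 50 after the start, 5′ to 3′ on the gene's strand) were matched by symbol for 30 of the 47 genes. They are shown for the 3 genes called higher in model than in sham and for Grik2, called higher in AKBA than in sham. Gria2 and Grin2b are not among the 30. Capitals mark the GC box with letters GGGCGG, the CCAAT box, the letters TATAAA and the SOX factor core with letters ACAAAG, each on either strand. They mark matches of letters at any position, so a TATAAA match need not be a core promoter element. Windows are chr20:1499187-1499486 (- strand) for Gabbr1, chr5:143052192-143052491 (+ strand) for Grik3, chrX:155543821-155544120 (- strand) for Gabra3 and chr20:54415234-54415533 (- strand) for Grik2.
Gabbr1: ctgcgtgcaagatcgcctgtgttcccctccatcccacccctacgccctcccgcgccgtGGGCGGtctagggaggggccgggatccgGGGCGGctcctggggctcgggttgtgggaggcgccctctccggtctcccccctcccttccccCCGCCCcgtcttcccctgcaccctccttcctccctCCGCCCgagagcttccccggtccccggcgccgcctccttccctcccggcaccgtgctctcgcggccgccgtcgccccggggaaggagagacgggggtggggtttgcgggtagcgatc
Grik3: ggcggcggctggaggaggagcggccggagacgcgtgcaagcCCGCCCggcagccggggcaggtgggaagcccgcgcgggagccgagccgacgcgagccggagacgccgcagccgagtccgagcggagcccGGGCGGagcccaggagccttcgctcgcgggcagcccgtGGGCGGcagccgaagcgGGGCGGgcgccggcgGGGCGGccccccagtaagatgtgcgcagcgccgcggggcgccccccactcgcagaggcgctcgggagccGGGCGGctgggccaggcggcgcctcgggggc
Gabra3: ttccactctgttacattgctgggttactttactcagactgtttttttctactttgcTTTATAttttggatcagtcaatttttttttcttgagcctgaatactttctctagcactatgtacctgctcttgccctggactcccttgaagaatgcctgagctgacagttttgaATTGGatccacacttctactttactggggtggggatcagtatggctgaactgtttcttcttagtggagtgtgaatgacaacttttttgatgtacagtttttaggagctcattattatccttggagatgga
Grik2: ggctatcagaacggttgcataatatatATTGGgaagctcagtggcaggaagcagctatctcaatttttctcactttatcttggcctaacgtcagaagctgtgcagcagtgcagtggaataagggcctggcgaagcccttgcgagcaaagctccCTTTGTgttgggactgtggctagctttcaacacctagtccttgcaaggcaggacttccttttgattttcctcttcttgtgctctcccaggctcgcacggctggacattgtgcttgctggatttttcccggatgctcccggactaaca

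The promoters of the 3 genes called higher in model than in sham were not alike. Gabbr1 held 4 GC boxes and 32 CpG dinucleotides and Grik3 held 6 GC boxes and 49 CpG, whereas Gabra3 held no GC box and no CpG, 1 TATAAA and 1 CCAAT box. The median over all 33469 windows was 7 CpG. Grik2 held 8 CpG, 1 CCAAT box and 1 SOX core. GGGCGG was in 12 of the 30 receptor windows and 33.1% of all windows, and CCAAT in 12 of 30 and 37.5%. TATAAA was in 2 of 30 and 14.2%, and ACAAAG in 2 of 30 and 18.8%. Searches for TGACGTCA (a cyclic AMP response element) and GCGTGGGCG (an EGR site) matched 0 of the 30 windows, and 1.83% and 0.544% of all windows. GGACAG, part of the element bound by REST, was in 8 of the 30 and in 21.7% of all windows. No motif searched lies within another.

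AMPA receptors carry most fast excitatory signalling, and Gria2, when its RNA is edited, makes them impermeable to calcium. Gria2 stood at 7.03 CPM in AKBA (633 counts), 34.6 CPM in model (3099 counts) and 21.4 CPM in sham (1588 counts). AKBA was lowest and model highest, with counting intervals that did not overlap. The CPM of Gria2 was 4.93-fold lower in AKBA than in model (interval 4.52 to 5.37) and 3.05-fold lower than in sham (2.78 to 3.35), which on the (CPM + 1) scale are log2 ratios of -2.15 and -1.48. Model over sham gave a log2 ratio of 0.67, below the 2-fold mark.

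Gria3 and Gria4, the other AMPA subunits past the level filter, did not share this order. Gria3 had 11.96 CPM in AKBA, 8.39 in model and 13.2 in sham, so model was lowest. Gria4 had 6.58 CPM in AKBA, 10.7 in model and 11.9 in sham, so AKBA was lowest, and neither gene reached 2-fold in any comparison. Gria1 had 17 counts in AKBA, 33 in model and 11 in sham. As a share of all AMPA subunit counts, Gria2 made up 27.3% in AKBA (interval 25.5 to 29.1), 64.0% in model (62.7 to 65.4) and 45.9% in sham (44.2 to 47.6). Gria3 made up 46.4% in AKBA, 15.5% in model and 28.2% in sham. The share of Gria2 was thus lower and that of Gria3 higher in AKBA than in either other library. The CPM of Gria3 itself was lower in AKBA than in sham.

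The transcript table split the Gria2 counts between a pair of RefSeq transcripts, which summed to the gene count in every library. Transcript NM_001083811.1 had 0.677 CPM in AKBA (61 counts), 17.2 CPM in model (1540 counts) and 6.79 CPM in sham (504 counts). Transcript NM_017261.2 had 6.35 CPM in AKBA (572 counts), 17.4 CPM in model (1559 counts) and 14.6 CPM in sham (1084 counts). Both were lowest in AKBA, but by different amounts: the first was 25.4-fold lower in AKBA than in model (interval 19.7 to 33.4) and the second 2.74-fold lower (2.49 to 3.02). The first transcript therefore made up 9.64% of Gria2 counts in AKBA (interval 7.45 to 12.2), 49.7% in model (47.9 to 51.5) and 31.7% in sham (29.5 to 34.1).

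Gria3 counts were assigned to different transcripts in each library. Transcript XM_017601950.1 held 644 counts in AKBA, 1 in model and 139 in sham. Transcript NM_032990.2 held 0 counts in AKBA, 324 in model and 793 in sham, and XM_006257496.3 held 400 counts in model and none in the other libraries. Transcripts matched to the gene by RefSeq accession covered 59.8% of the Gria3 gene count in AKBA, 96.5% in model and 98.6% in sham. On these transcripts alone the log2 ratio of AKBA over model was -0.16, against 0.46 at the gene level, so that AKBA and not model was lowest. The sources used here do not give the method that divided reads among transcripts, and its part in these values was not tested.

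**Figure D2:**
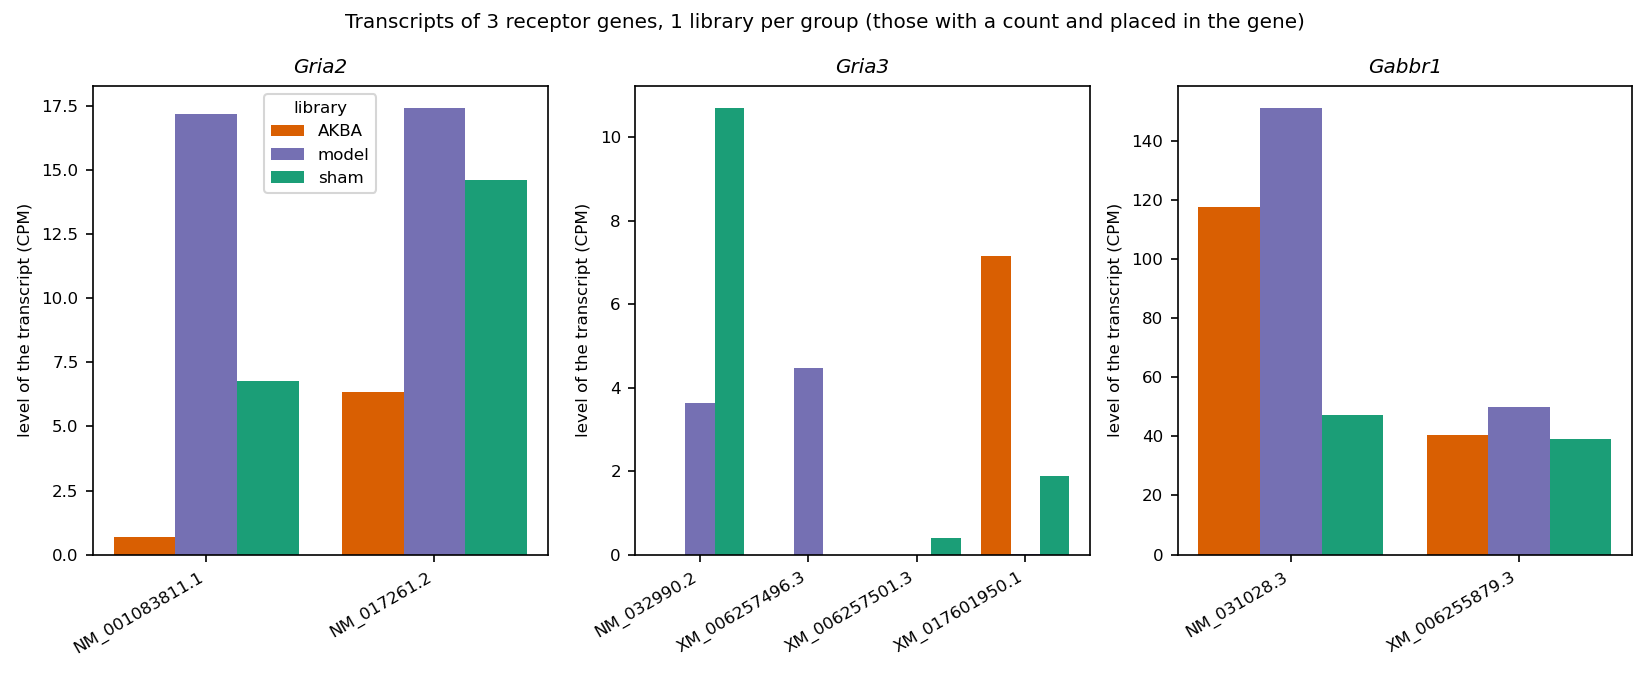
Levels in CPM of the transcripts of Gria2, Gria3 and Gabbr1 in the AKBA, model and sham libraries, for transcripts with a count that matched the gene by accession. NM_001083811.1 of Gria2 is at 0.677 CPM in AKBA against 17.2 CPM in model, Gria3 counts fall on different transcripts in each library, and of the Gabbr1 pair only NM_031028.3 stands more than 2-fold higher in model than in sham.

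Kainate receptor subunits summed to 40.4 CPM in AKBA, 35.8 in model and 22.5 in sham. Grik2, a subunit that can form channels alone, had 21.1 CPM in AKBA (1901 counts), 14.8 in model (1323 counts) and 9.95 in sham (738 counts). AKBA was highest and sham lowest, without overlap of the counting intervals. Grik2 was 2.12-fold higher in AKBA than in sham (interval 1.95 to 2.31), a log2 ratio of 1.01, and 0.85 relative to the median of all genes. That call was lost with TMM scaling (0.86), median-of-ratios scaling (0.86) and totals without ribosomal RNA (0.96).

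Grik3 had the opposite order among the crushed nerves, at 4.04 CPM in AKBA (364 counts), 7.08 in model (634 counts) and 2.62 in sham (194 counts). It was highest in model and lowest in sham, and 2.71-fold higher in model than in sham (interval 2.30 to 3.20; log2 ratio 1.16, or 0.98 relative to the median of all genes). With TMM scaling the log2 ratio was 0.99, just under 2-fold, and 0.03 from the transcripts matched to it, which held 6 of its counts in AKBA, 2 in model and 0 in sham. Grik5, which needs one of the other subunits to form a channel, had 14.6 CPM in AKBA, 12.9 in model and 9.48 in sham. Grik4, with the same need, had 43 counts in AKBA, 68 in model and 29 in sham. Grik1 had 10 counts in AKBA, 22 in model and 7 in sham. The share of kainate subunit counts from Grik2 was 52.3% in AKBA, 41.3% in model and 44.2% in sham, and that from Grik3 was 10.01% in AKBA, 19.8% in model and 11.6% in sham.

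The delta subunits, which bind cerebellins rather than open to glutamate, were below the filter. Grid1 had 10 counts in AKBA, 28 in model and 20 in sham. Its CPM was highest in model, but the ratio of model to sham was 1.16 with an interval that included 1 (0.631 to 2.17). The family summed to 0.699 CPM in AKBA, 1.60 in model and 1.08 in sham.

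NMDA receptors pair Grin1 with Grin2 or Grin3 subunits, and the family summed to 44.0 CPM in AKBA, 25.0 in model and 38.1 in sham. Grin2b, which binds glutamate, had 34.5 CPM in AKBA (3111 counts), 15.1 in model (1355 counts) and 31.5 in sham (2337 counts). Model was lowest, and AKBA and sham lay close together. Grin2b was 2.28-fold higher in AKBA than in model (interval 2.14 to 2.43; log2 ratio 1.14) and 2.08-fold lower in model than in sham (1.95 to 2.23; log2 ratio -1.01). Both calls use the same model library. AKBA over sham gave a log2 ratio of 0.13. As a share of NMDA subunit counts Grin2b made up 78.5% in AKBA, 60.4% in model and 82.8% in sham.

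The other NMDA subunits past the filter did not follow Grin2b. Grin2d had 6.37 CPM in AKBA, 5.73 in model and 4.41 in sham. Its matched transcript, NM_022797.1, held 183 of the gene's 574 counts in AKBA, 215 of 513 in model and 327 of 327 in sham, and on it the direction turned, with a log2 ratio of -0.83 for AKBA over sham and -0.67 for model over sham, against 0.45 and 0.32 at the gene level. Grin3b, a glycine-binding subunit, had 2.58 CPM in AKBA, 3.62 in model and 1.48 in sham, and was highest in model. Its log2 ratio of model over sham was 0.90 on the (CPM + 1) scale, under 2-fold. The plain CPM ratio of Grin3b in model over sham was 2.44 (interval 1.96 to 3.06), above 2-fold. Grin1, the subunit every NMDA receptor needs, had 0 counts in AKBA, 23 in model and 7 in sham. The count of 0 allows up to 0.0333 CPM by a limit of 3 counts, and up to 0.0410 CPM by the exact interval. Grin2a had 3 counts in sham and none in AKBA or model, and Grin3a had 47 counts in AKBA, 27 in model and 39 in sham. Grin1 was thus at or below 0.257 CPM in every library. In the RefSeq gene table Grin2d overlaps Grwd1 and Grin3b overlaps Tmem259, and counts of overlapping genes are uncertain because the sources used here do not give the strand setting of the counting.

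Of the Grin2b counts, 92.1% in AKBA, 93.4% in model and 77.7% in sham were assigned to transcript XM_017592439.1. That transcript had 31.8 CPM in AKBA, 14.1 in model and 24.5 in sham, so it was lowest in model as the gene was. NM_012574.1 had 109 counts in sham and none in AKBA or model.

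Metabotropic glutamate receptors were sparse, with 227 counts over 8 genes in AKBA, 218 in model and 131 in sham. Grm6, known from retinal bipolar cells, was the 1 gene of the family past the filter, at 0.810 CPM in AKBA, 1.28 in model and 1.23 in sham. Grm8, a receptor that lowers cyclic AMP, had 101 counts in AKBA, 67 in model and 28 in sham, with AKBA highest and 2.97-fold above sham (interval 1.94 to 4.69). Grm7 had 9 counts in AKBA, 11 in model and 12 in sham. Neither Grm6 nor Grm7 had a count on its matched transcript. Grm3, Grm4 and Grm5 had at most 11 counts in a library.

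**Figure D3:**
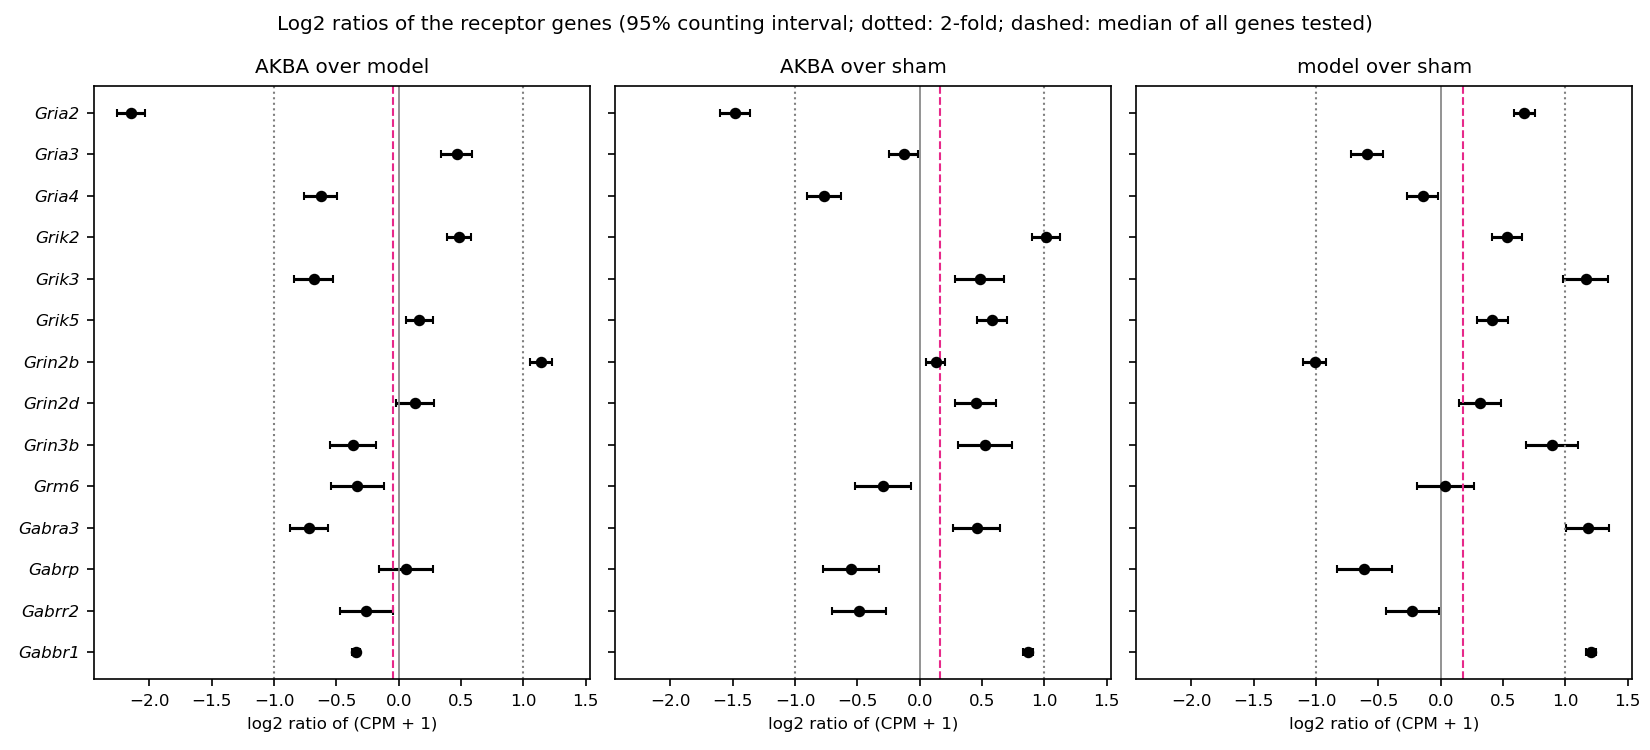
Log2 ratio of (CPM + 1) for the 14 receptor genes in AKBA over model, AKBA over sham and model over sham, with 95% counting intervals as error bars, dotted lines at 2-fold and a dashed line at the median of all genes tested. Past 2-fold are Gria2 on the lower side and Grin2b on the higher side in AKBA over model, Gria2 and Grik2 in AKBA over sham, and Gabbr1, Gabra3, Grik3 and Grin2b in model over sham.

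GABAA receptors combine alpha and beta subunits, most often with a gamma subunit, and the alpha subunits take part in binding GABA and set the response to drugs such as benzodiazepines. Gabra3 had 4.39 CPM in AKBA (395 counts), 7.89 in model (706 counts) and 2.93 in sham (217 counts). Model was highest, without overlap of the counting intervals. Gabra3 was 2.70-fold higher in model than in sham (interval 2.31 to 3.15; log2 ratio 1.18). Relative to the median of all genes its log2 ratio was 0.998, just under 2-fold. From its matched transcripts, which covered 80.8% of the gene count in AKBA, 100% in model and 26.7% in sham, the log2 ratio of model over sham was 2.32. AKBA over model gave a log2 ratio of -0.72 at the gene level, under 2-fold. Gabra2 had 131 counts in AKBA, 54 in model and 12 in sham, a different order from Gabra3, with AKBA highest and sham lowest. Gabra4 had 7 counts in AKBA, 20 in model and 17 in sham, and Gabra5 had 8 in AKBA, 0 in model and 7 in sham.

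The partners of the alpha subunits were at low counts. Among the beta subunits, Gabrb1 had 80 counts in AKBA, 49 in model and 51 in sham, and Gabrb2 had 104 in AKBA, 28 in model and 68 in sham. Gabrb2 was lowest in model: its CPM was 3.69-fold higher in AKBA than in model (interval 2.41 to 5.82) and 2.93-fold lower in model than in sham (1.86 to 4.73). Among the gamma subunits, Gabrg1 had 11 counts in AKBA, 52 in model and 21 in sham, and Gabrg3 had none. Gabrg1 was highest in model, and 4.76-fold lower in AKBA than in model (interval 2.45 to 10.1). Gabre, which replaces a gamma subunit in some receptors, had 26 counts in AKBA, 24 in model and 38 in sham, and Gabrq, the theta subunit, had 25 in AKBA, 20 in model and 33 in sham. Gabrp, a subunit known from epithelia, had 0.799 CPM in AKBA, 0.726 in model and 1.64 in sham, and passed the filter through the sham library. Gabrp overlaps LOC108352198 in the RefSeq gene table. None of the counts of Gabrb1, Gabrg1, Gabrq and Gabrp lay on transcripts matched to them by accession, in any library.

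The rho subunits, which form GABA-gated channels by themselves, had their highest CPM in sham, although counting intervals did not set Gabrr1 apart. Gabrr2 had 1.37 CPM in AKBA, 1.83 in model and 2.32 in sham, under 2-fold in every comparison. Its matched transcripts had opposite orders. NM_017292.2 was highest in sham (0.833 CPM in AKBA, 1.44 in model and 2.17 in sham). XM_008763611.2 was lowest in sham (0.533 CPM in AKBA, 0.391 in model and 0.148 in sham). Gabrr1 had 28 counts in AKBA, 22 in model and 32 in sham, and Gabrr3 had 17 in AKBA, 4 in model and 28 in sham. The Gabrr1 ratio was 0.721 for AKBA over sham (interval 0.418 to 1.24) and 0.570 for model over sham (0.315 to 1.01). No Gabrr1 count lay on its matched transcript.

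GABAB receptors are dimers in which Gabbr1 binds GABA and Gabbr2 activates the G protein. Gabbr1 had 158 CPM in AKBA (14251 counts), 201 CPM in model (17967 counts) and 86.4 CPM in sham (6406 counts). Both crushed nerves were above sham, and model was highest. Gabbr1 was 2.32-fold higher in model than in sham (interval 2.26 to 2.39; log2 ratio 1.21, or 1.03 relative to the median of all genes) and 1.83-fold higher in AKBA than in sham (1.78 to 1.89; log2 ratio 0.87). With TMM scaling the log2 ratio of model over sham was 0.99, just under 2-fold. Gabbr2 did not share this order, with 97 counts (1.08 CPM) in AKBA, 45 (0.503 CPM) in model and 83 (1.12 CPM) in sham. Its level was lowest in the library in which Gabbr1 was highest.

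The Gabbr1 counts were divided between a pair of transcripts that differed in how they compared with sham. NM_031028.3 had 118 CPM in AKBA (10597 counts), 151 CPM in model (13511 counts) and 47.2 CPM in sham (3503 counts). XM_006255879.3 had 40.6 CPM in AKBA (3654 counts), 49.8 CPM in model (4456 counts) and 39.1 CPM in sham (2903 counts). The first was 3.20-fold higher in model than in sham (interval 3.08 to 3.32) and 2.49-fold higher in AKBA than in sham (2.40 to 2.59). The second was 1.27-fold higher in model than in sham (1.21 to 1.33), and its ratio of AKBA to sham was 1.04 (0.987 to 1.09). NM_031028.3 made up 74.4% of Gabbr1 counts in AKBA, 75.2% in model and 54.7% in sham.

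The receptor genes below the filter were described by the plain CPM ratio, counted where it was at least 2-fold with a counting interval that left out 1. Only genes with at least 20 counts over the pair of libraries compared were taken, among receptor genes and all genes alike. In AKBA against model 5 of 21 such genes were higher, among them Gabbr2, Gabra2, Gabrb2 and Gabrr3, and 6 lower, among them Gabra4, Gabrg1, Grid1, Grik1 and Grin1. Of all genes below the filter with at least that many counts, 23.7% were higher and 17.6% lower by the same rule. In AKBA against sham 3 of 18 were higher, among them Gabra2 and Grm8, and 3 lower (Gabra4, Gabrg1 and Grid1), with 31.8% and 15.3% of all such genes. In model against sham 5 of 20 were higher (Gabra2, Gabrg1, Gria1, Grik1 and Grin1) and 3 lower (Gabbr2, Gabrb2 and Gabrr3), with 25.3% and 15.6% of all such genes. The receptor genes' shares were close to these in 4 of the 6 counts, and the others were 28.6% lower in AKBA than in model and 16.7% higher in AKBA than in sham. At any level, the same minimum of 20 counts was kept. The plain ratio then gave 6 of 35 receptor genes higher and 7 lower in AKBA against model. These were 17.1% and 20%, against 6.64% and 4.63% of all genes with at least that many counts. In AKBA against sham it gave 4 and 5 of 32 (12.5% and 15.6%, against 11.8% and 4.84%). In model against sham it gave 9 and 5 of 34 (26.5% and 14.7%, against 9.44% and 4.00%). These shares are not like for like, since genes below the filter are called more often. In AKBA against model they were 21 of the 35 receptor genes, but 2517 of all 16940 genes with at least 20 counts. Gabra2 was 8.99-fold higher in AKBA than in sham (interval 4.98 to 17.8), and Gabrr3 was 8.45-fold lower in model than in sham (2.95 to 33.1).

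**Figure D4:**
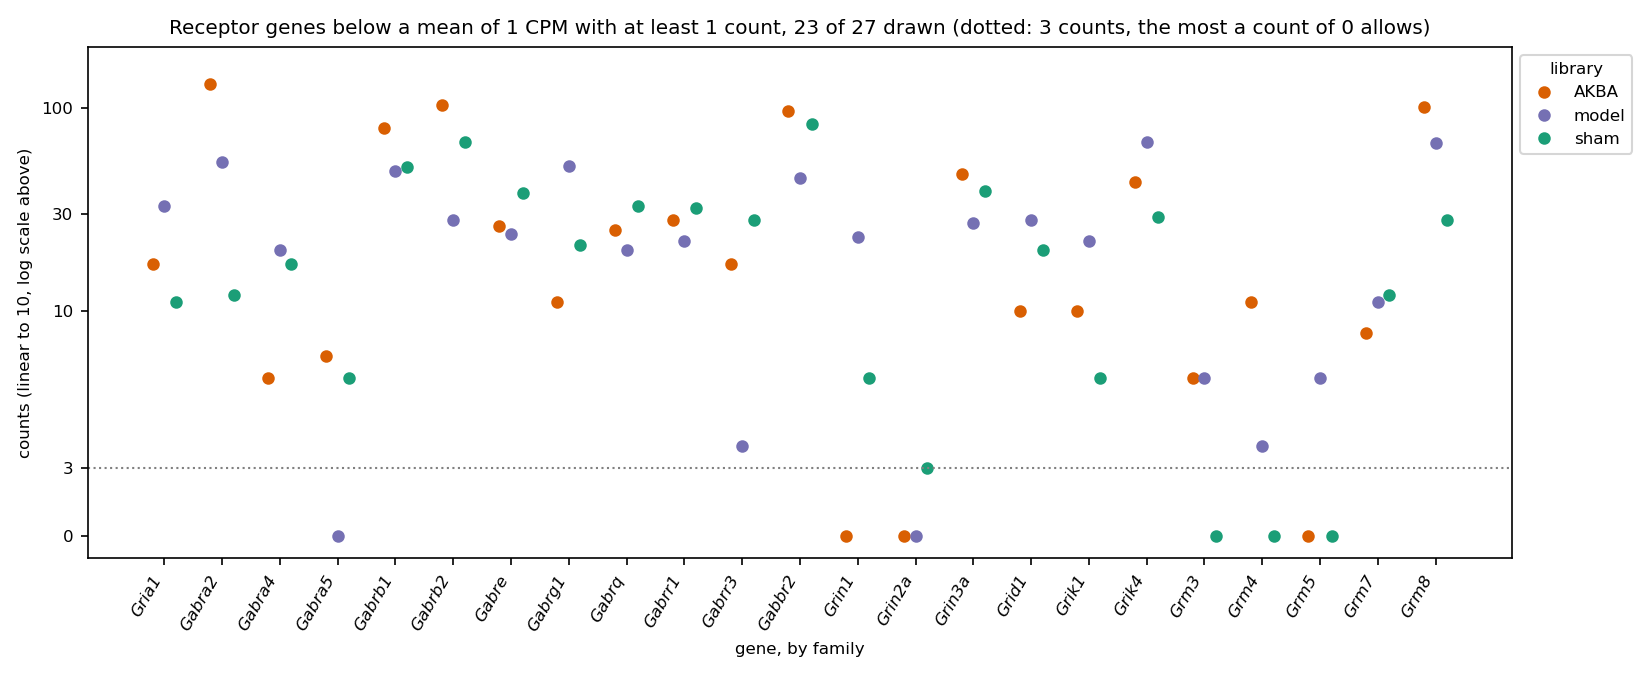
Counts of 23 of the 27 receptor genes below a mean of 1 CPM that had a count, in the AKBA, model and sham libraries, on a scale that is linear to 10 and logarithmic above, with a dotted line at 3 counts. Gabra2 has 131 counts in AKBA, 54 in model and 12 in sham, and Grin1 has 0 counts in AKBA.

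The proteins that escort and anchor these receptors were followed with lists. Of the 26 auxiliary proteins of AMPA, kainate and delta receptors, 14 passed the filter. In AKBA against model 0 were called higher and 2 lower: Olfm1, a secreted AMPA receptor partner, had 11.5 CPM in AKBA, 27.3 in model and 21.4 in sham, and C1ql3, a secreted synapse organiser, had 5.65 CPM in AKBA, 17.1 in model and 7.71 in sham. Both were lowest in AKBA and highest in model, as Gria2 was. In model against sham 2 were called higher, C1ql3 and Cacng4, a transmembrane AMPA receptor regulator (2.33 CPM in AKBA, 3.83 in model and 1.32 in sham), and 0 lower. In AKBA against sham Shisa6 was called lower (1.15 CPM in AKBA, 1.88 in model and 3.59 in sham) and 0 higher. Abhd6 stood at 19.9 CPM in AKBA, 19.4 in model and 17.6 in sham, and Nptxr, a neuronal pentraxin receptor, at 11.3 CPM in AKBA, 13.2 in model and 18.5 in sham. The list's median log2 ratio was -0.38 for AKBA over model, 0.06 for AKBA over sham and 0.30 for model over sham.

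Of 24 scaffold and kinase genes of glutamate receptors, 19 passed the filter and 0 were called either way in AKBA against model. In model against sham Shank3, a postsynaptic scaffold, and Camk2b, a calcium-dependent kinase, were called higher and Dlg2 lower. Shank3 had 28.5 CPM in AKBA, 32.8 in model and 13.3 in sham, and Camk2b had 29.2 CPM in AKBA, 43.0 in model and 16.8 in sham. Dlg2, a synaptic scaffold, had 10.1 CPM in AKBA, 13.1 in model and 28.2 in sham. Sham thus stood apart from both crushed nerves for Shank3 and Dlg2, and in AKBA against sham these were the genes called higher and lower. Camk2d (63.7 CPM in AKBA, 51.0 in model and 59.5 in sham), Dlg1 and Dlgap4 stayed under 2-fold. The list's median log2 ratio was 0.08 for AKBA over model, 0.27 for AKBA over sham and 0.04 for model over sham.

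Of 18 GABA receptor partners, 15 passed the filter, and 1 call was made, Slc12a2 as higher in AKBA than in sham. Slc12a2, the chloride importer that raises the chloride of sensory neurons, had 425 CPM in AKBA, 320 in model and 207 in sham. Kctd12, an auxiliary GABAB subunit, had 334 CPM in AKBA, 352 in model and 230.0 in sham, and Gabarap, which binds a GABAA gamma subunit, had 181 CPM in AKBA, 187 in model and 186 in sham. Lhfpl4, which assembles GABAA receptors at synapses, was at 0 in AKBA and sham and at 0.402 CPM in model. The median log2 ratio of this list was -0.17 for AKBA over model, 0.30 for AKBA over sham and 0.46 for model over sham.

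Of 23 genes listed for glutamate transport and synthesis, 22 were in the table and 16 passed the filter. Slc7a11, the cystine-glutamate exchanger, had 33.8 CPM in AKBA, 9.76 in model and 11.3 in sham, and was called higher in AKBA than in either other library. The glutamate transporter Slc1a3 had 53.5 CPM in AKBA, 77.7 in model and 110 in sham, and the neutral amino acid transporter Slc1a5 had 74.6 CPM in AKBA, 112 in model and 167 in sham. Both were called lower in AKBA than in sham. Glutamine synthetase Glul (422 CPM in AKBA, 511 in model and 422 in sham) and Glud1 stayed under 2-fold, and 0 genes were called in model against sham. The median log2 ratio of the list was 0.06 for AKBA over model, 0.34 for AKBA over sham and 0.14 for model over sham. The vesicular transporters Slc17a6, Slc17a7 and Slc17a8 had at most 8 counts in a library.

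Of 12 genes for GABA transport and synthesis, 9 passed the filter. Slc6a12, the betaine and GABA transporter, had 2.93 CPM in AKBA, 0.9497 in model and 0.795 in sham, and was called higher in AKBA than in either. In model against sham 0 were called. The median log2 ratio of the list was -0.15 for AKBA over model, -0.02 for AKBA over sham and 0.75 for model over sham. Maob, which takes part in making GABA from putrescine, had 176 CPM in AKBA, 271 in model and 141 in sham, and Dbi and Aldh9a1 stayed under 2-fold. The synthesizing enzymes stood low, Gad1 with 38 counts in AKBA, 55 in model and 53 in sham and Gad2 with 0 in AKBA, 6 in model and 0 in sham, and the vesicular transporter Slc32a1 had none.

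**Figure D5:**
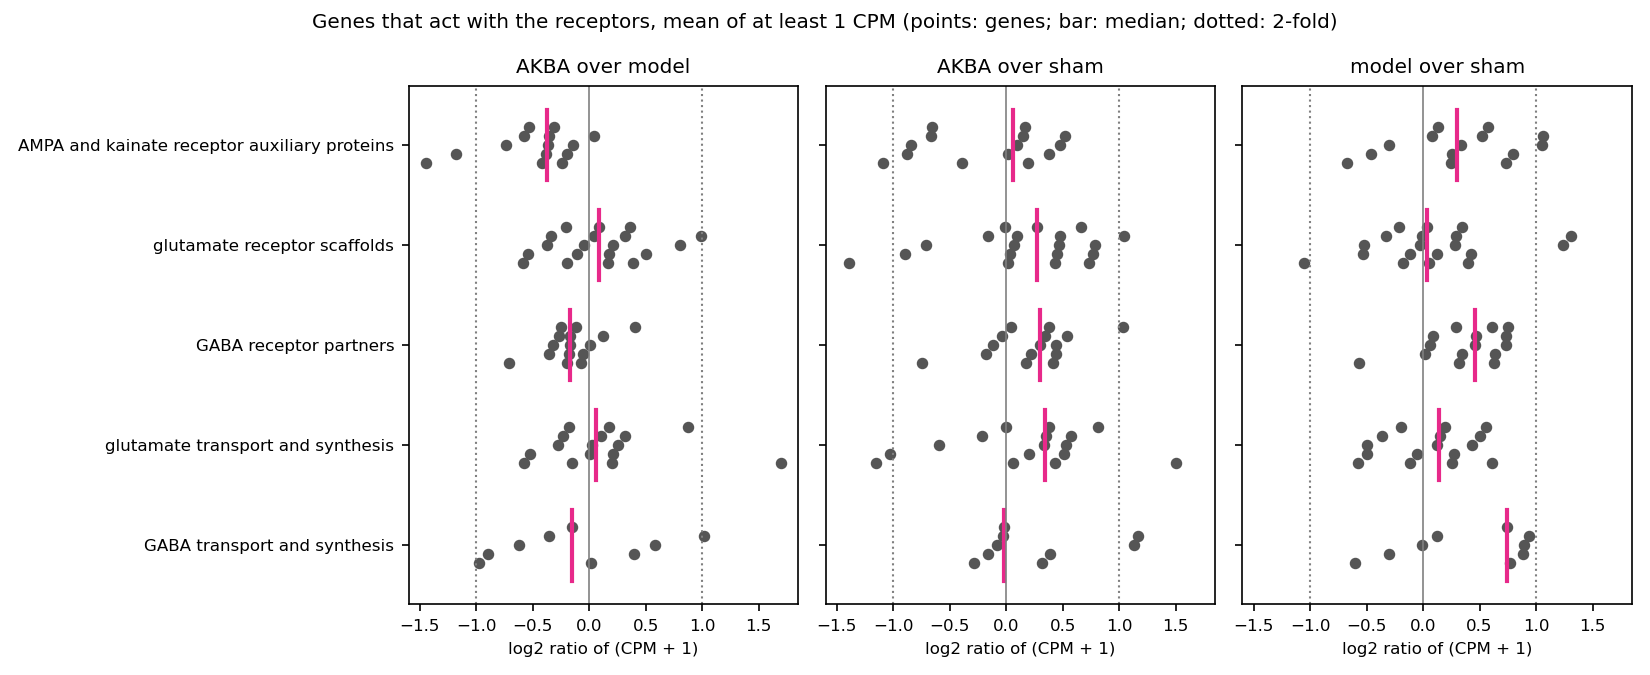
Log2 ratio of (CPM + 1) of the genes past the level filter in 5 lists of receptor partners, transporters and enzymes, for AKBA over model, AKBA over sham and model over sham, with a bar at the median of each list and dotted lines at 2-fold. Past the mark in AKBA over model are Olfm1 and C1ql3 on the lower side and Slc7a11 and Slc6a12 on the higher side.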

How the data were processed

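Ribosomal RNA was removed with probes and the rest was fragmented and copied from random primers, per the labels' protocols. Of tools, bcl2fastq 2.0, HISAT2 and StringTie, then DESeq2 and limma, appear with no role per the submitters' processing notes, as does the build mm10, although the rows carry rat identifiers. The sources used here give no strand or counting setting. The deposited values are counts, whole numbers per mRNA gene or transcript without normalization. The model column, of unit other, held the same kind of deposited count with 2 extra text characters after each, which were removed. Transcripts were placed in genes by RefSeq accession (GRCr8 table, names only), and for 7 of the 14 receptor genes with a mean of 1 CPM they summed to the gene count in every library. None of the counts of Grm6, Grm7, Gabrp, Gabrb1, Gabra4, Gabrg1, Gabrq and Gabrr1 lay on placed transcripts, so these genes rest on the gene counts alone. The lncRNA tables were not used here. Some receptor and list genes are counted but not reported here by name, in text or figures.

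The receptor genes and the lists were chosen with earlier results of these data known. CPM, ratios with a pseudocount of 1 CPM, and exact (Clopper-Pearson) 95% intervals were computed with Python 3.11.15 and scipy 1.17.1, and TMM factors with edgeR 4.0.16. Named genes were the other receptor genes, with counts where at least 20 were found (those of the 6 with fewer are given too), and, in each list, the 3 with the highest mean CPM and those past 2-fold. The ratio and interval steps were tested on simulated counts with counting error only, in genes at 5 CPM or more. The planted changes were larger than 2-fold. That test does not cover genes below the filter or changes near the 2-fold mark. A count of 0 was taken to allow up to 3 counts (0.0333 CPM in AKBA, 0.0335 in model and 0.0404 in sham). This set limit is lower than the upper end of the exact interval. Small counts may not each be 1 read, since 7 occurred in 224 genes in AKBA, 226 in model and 227 in sham, against 128, 129 and 128 for 6 and 80, 51 and 71 for 8. Intervals may then be too narrow. A planned level per coding length was left out because no lengths were at hand.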

Additional observations from a re-analysis of the deposited data

How the results depend on the processing

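No paired analysis was possible because each group had 1 library, and for the same reason no library could be left out. The calls in AKBA against model (Grin2b higher, Gria2 lower) were the same under all settings of scaling, pseudocount, filter and transcript sums. For AKBA against sham, the count of receptor genes called higher was 0 with TMM scaling, median-of-ratios scaling and totals without ribosomal RNA, 2 with no filter (Gabra2 and Grik2) and 2 with sums of transcripts (Gabra3 and Grik2), against 1. For model against sham, 1 gene (Gabra3) was called higher with TMM scaling, against 3, and 2 (Gabrp and Grin2b) lower at a pseudocount of 0.1, against 1. TMM and median-of-ratios scaling moved the median of all genes by -0.20 and -0.18 in model over sham and by -0.15 and -0.15 in AKBA over sham. The plain ratio with its counting interval takes in genes below the filter that have at least 20 counts over the pair of libraries. The shares of all genes with at least that many counts are given above. By it, 6 of 35 receptor genes were higher and 7 lower in AKBA against model. The counts were 4 and 5 of 32 in AKBA against sham, and 9 and 5 of 34 in model against sham. With sums of transcripts the log2 ratio of Grik3 in model over sham was 0.03, because 2 of its 634 counts in model and 0 of 194 in sham were on placed transcripts. No call changed sign. Of log2 ratios under 2-fold, transcript sums turned AKBA over model for Gria3 (-0.16), Grik3 (0.06) and Grin2d (-0.17) and both ratios over sham for Grin2d, and TMM scaling turned Grin2b in AKBA over sham (-0.03) and Grm6 in model over sham (-0.08). At a filter of 5 CPM the median of the receptor genes in AKBA over model was 0.13, against -0.30. Depth limits what can be said of the 33 genes below 1 CPM.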
